A study of Mus musculus with 10 samples.

Results

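The genes that write, copy and erase DNA methylation were followed in mouse oocytes depleted of basonuclin (Bnc1), a zinc finger protein of germ cells and keratinocytes. They were chosen by name and number 10: the methyltransferase genes Dnmt1, Dnmt3a and Dnmt3b, their partners Uhrf1 and Dnmt3l, the dioxygenase genes Tet1, Tet2 and Tet3, the protector gene Dppa3 and the glycosylase gene Tdg. The platform annotation gave 21 of the array's 45101 probe sets to 9 of these genes alone. A further 3 probe sets were listed for Tdg together with its pseudogenes Tdg-ps and Tdg-ps2, so no probe set stood for Tdg by itself. Of the 18194 genes named on the array 10590 were tested, 8 of them among the 10, because the probe sets of Tet2 were too dim and those of Tdg were shared.

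Oocytes were fully grown and at the germinal vesicle stage, and RNA from about 50 oocytes of 1 mouse went on each of 10 arrays, 1 per sample. The control group was 4 samples from non-transgenic mice (replicates 1, 2, 7 and 8). The other group was 6 samples from mice with a transgene that drives RNA interference against Bnc1 in the oocyte (replicates 4, 5, 6, 11, 12 and 13). The sources used here name no strain, age, transgene promoter or founder line. Levels are log2 of the deposited intensity, and a probe set was tested where it exceeded log2 5 on at least 4 arrays. A difference is transgenic minus control, and "rose" or "fell" means an adjusted p below 0.05 in limma over all 10590 genes, each taken at its brightest probe set. Arrays were scaled to each other and oocytes were pooled, so fewer oocytes with an mRNA and less of it per oocyte cannot be told apart.

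DNA methylation is a methyl group on the cytosine of a CG pair. DNMT3A, DNMT3B and the catalytically inactive cofactor DNMT3L place it anew, and in the growing oocyte DNMT3A with DNMT3L is known to set the maternal imprints. DNMT1, brought to newly copied DNA by UHRF1, copies the pattern at replication, and the oocyte is known to store an own form of DNMT1 for the embryo. TET proteins oxidise the methyl group, TDG excises oxidised bases, TET3 is known as the form of the oocyte and zygote and TET1 as that of embryonic stem cells and primordial germ cells. DPPA3, also called Stella, is a maternal protein known to shield the maternal genome from TET3 and to hold UHRF1 out of the nucleus of the oocyte.

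The array measured mRNA and not methylation. The stretches before the start sites of Tet1 and Dnmt3b are shown because, of the members tested, these rose and fell by the largest differences and because the CG pair is where this methylation sits. Each is the 250 bases before the annotated start, 5′ to 3′ on the gene's strand (minus for Tet1, plus for Dnmt3b), from RefSeq on GRCm38.p6, with every CG in capitals.
Tet1 chr10:62887325-62887574: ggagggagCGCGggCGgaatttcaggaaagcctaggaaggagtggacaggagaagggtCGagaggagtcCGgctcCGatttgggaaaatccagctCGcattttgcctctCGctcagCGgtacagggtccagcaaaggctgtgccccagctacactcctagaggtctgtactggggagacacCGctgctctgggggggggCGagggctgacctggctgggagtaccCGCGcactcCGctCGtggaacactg
Dnmt3b chr2:153649199-153649448: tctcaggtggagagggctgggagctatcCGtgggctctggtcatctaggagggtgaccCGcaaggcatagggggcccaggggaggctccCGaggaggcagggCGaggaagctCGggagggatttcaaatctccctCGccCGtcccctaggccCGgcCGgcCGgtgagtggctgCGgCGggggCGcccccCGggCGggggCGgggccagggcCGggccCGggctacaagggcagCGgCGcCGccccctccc
The Tet1 window holds 15 CG pairs and the Dnmt3b window 21. Of 32851 such windows in the table, 27.3% hold at least 15 and 16.3% at least 21, against a median of 6. The table held 16 start sites for 9 of the 10 genes and none for Dppa3. Among these windows the counts ran from 2, at 1 of the 3 Dnmt1 starts, to 51 at Tet2.

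Bnc1 itself was at log2 11.40, 11.51, 11.61 and 11.76 in the control samples and under the filter level in every transgenic sample, with a lowest, median and highest value of 3.67, 3.77 and 4.26. All 17 oocyte markers on the array exceeded the filter level in every control sample, and all but Sohlh1 (5 of 6) did so in every transgenic sample. Of these 17 markers 1 rose and 2 fell (17.6%, beside 37.2% of all tested genes), with a median difference of -0.004. The 3 brightest, Oosp1, Nlrp5 and Ooep, differed by -0.00, -0.15 and -0.08 and did not pass. Of 17 markers of granulosa and cumulus cells, 6 were below the level everywhere (Amh, Inhba, Has2, Ptx3, Star and Amhr2). Their summed intensity ran from 1860 to 2110 in control and from 1840 to 3010 in transgenic samples, 2 of 9 tested rose and 0 fell, with a median difference of 0.55 over the 9, beside -0.03 for all tested genes. The 2 that rose, Cyp11a1 by 1.57 and Fshr by 1.24 (limma adjusted p = 0.0232 and 0.00481), are named after their values were seen, and the 3 brightest, Nr5a2, Gja1 and Gata4, differed by -0.07, 0.55 and -0.37 and did not pass. Of the 17 granulosa and cumulus markers, 6 exceeded the level in every control sample and 8 in every transgenic sample. Differences in this list can thus involve values under the level. The values given for Cyp11a1 and Fshr were not bounded at the level and stand as a description. Of 11 stroma and vessel markers 6 were below the level everywhere, the sum ran from 481 to 585 and from 534 to 701, and 2 of 4 tested rose and 1 fell, with a median of 0.37 and Col4a1 at -0.06, Postn at 0.81 and Kdr at 1.19. These 3 are named as the brightest, and the marker that fell is not among them. Of 8 blood and immune markers 5 were below it everywhere, the sum ran from 3390 to 4220 and from 2780 to 4450, and 1 of 3 tested rose and 1 fell, with a median of 0.33 and Srgn at -0.56, H2-Aa at 0.33 and Laptm5 at 1.06. The shares called were 22.2% of tested granulosa and cumulus markers, 75% of stroma and vessel markers and 66.7% of blood and immune markers. Among all tested genes 37.2% were called, and with so few markers no more is read from these shares. The part of such cells in the results was not tested.

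Of the 8 tested members 2 rose (Tet1 and Uhrf1), 3 fell (Dnmt3a, Dnmt3b and Dppa3) and 3 did not pass (Dnmt1, Dnmt3l and Tet3). The 5 calls are 62.5% of the members tested. Among all genes tested 37.2% were called, 18.9% higher and 18.3% lower, and with 8 members no more is read from this share. Tet1 rose at least 20.2-fold, whereas the other 4 called members changed by 1.10-fold to 1.51-fold. Groups did not overlap for Tet1, Uhrf1 and Dnmt3b, 3 of 8, where 28% of all tested genes had no overlap. The median difference of the 8 members was -0.06, beside -0.03 for all tested genes. Leaving out control replicate 8 left 1 member higher and 1 lower, and leaving out control replicate 1 or transgenic replicate 5 left 1 lower.

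**Figure D1:**
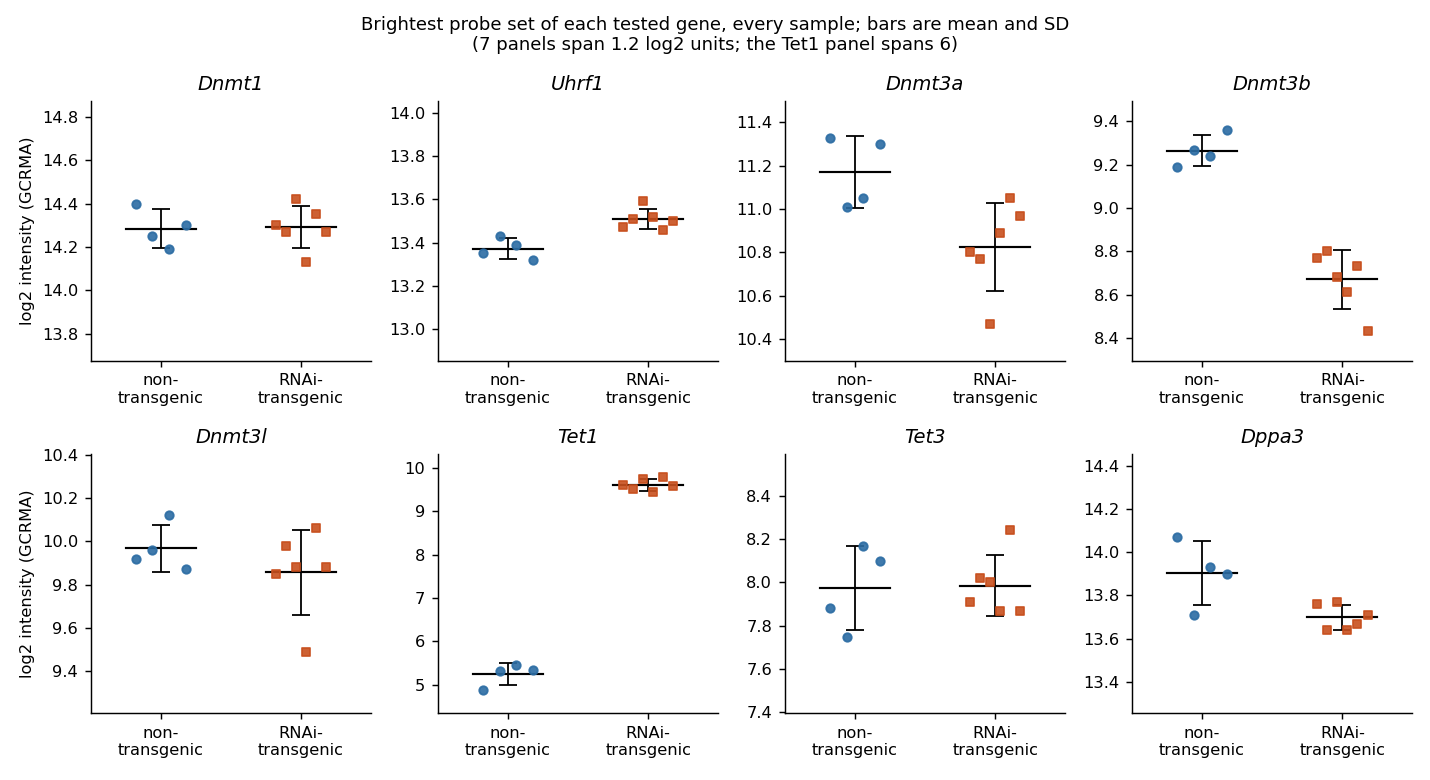
Log2 intensity of the brightest probe set of each tested member in the 4 control (circles) and 6 RNAi-transgenic samples (squares), with mean and SD; 7 panels span 1.2 log2 units and that of Tet1 spans 6. The Tet1 samples lie between 4.88 and 5.45 and between 9.44 and 9.79 in the 2 groups. The groups overlap for Dnmt1, Dnmt3l and Tet3, and also for Dnmt3a and Dppa3.

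Tet1 was near the filter level in control oocytes and well above it in every basonuclin-depleted sample. Its brightest probe set (1429448_s_at) was at log2 4.88, 5.31, 5.45 and 5.33 in control replicates 1, 2, 7 and 8, an average intensity of 38.3. In transgenic samples the lowest, median and highest values were 9.44, 9.60 and 9.79, an average intensity of 786. All 6 transgenic samples were higher than every control sample. The difference was 4.37 (SE 0.12, 95% interval 4.10 to 4.64, limma adjusted p = 1.37e-09, exact permutation p = 0.00476, the smallest that its 210 arrangements allow). Because replicate 1 of the control group was under the filter level, the size is given as at least 20.2-fold with that sample set to the level. Of all tested genes 6.63% rose and 2.35% fell at least 2-fold, and 0.34% differed upward by as much as Tet1.

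Of the 3 other Tet1 probe sets, 1 had higher values in transgenic oocytes and 2 stayed dim. Probe set 1455425_at was at 3.53, 3.05, 3.15 and 3.22 in the control samples and at 6.88, 7.00 and 7.14 (lowest, median, highest) in the transgenic samples. It was under the filter level in all 4 control samples and passed the filter only through the transgenic group, so its difference of 3.77 stands as a description. Probe set 1419897_at was between 3.72 and 3.98 in control and between 3.77 and 3.93 in transgenic samples, and 1419896_at between 2.78 and 3.19 and between 3.17 and 3.35. Both were under the filter level in all 10 samples and were not tested. The sources used here do not place the probe sets on the Tet1 transcript, so the Tet1 result rests on 1429448_s_at, the 1 probe set of 4 measured above the level in both groups (3 of 4 control and 6 of 6 transgenic samples). With 3 control samples above the level, 1429448_s_at too reached the 4 arrays of the filter only with transgenic samples. Its test is thus not free of that selection. With no filter the limma adjusted p was 2.5e-09.

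Tet2 was under the filter level on every array. Its probe sets 1455300_at and 1438781_at lay between 2.61 and 2.77 and between 2.42 and 2.54 in control samples, and between 2.59 and 2.65 and between 2.42 and 2.46 in transgenic samples. No fold is given for it.

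**Figure D2:**
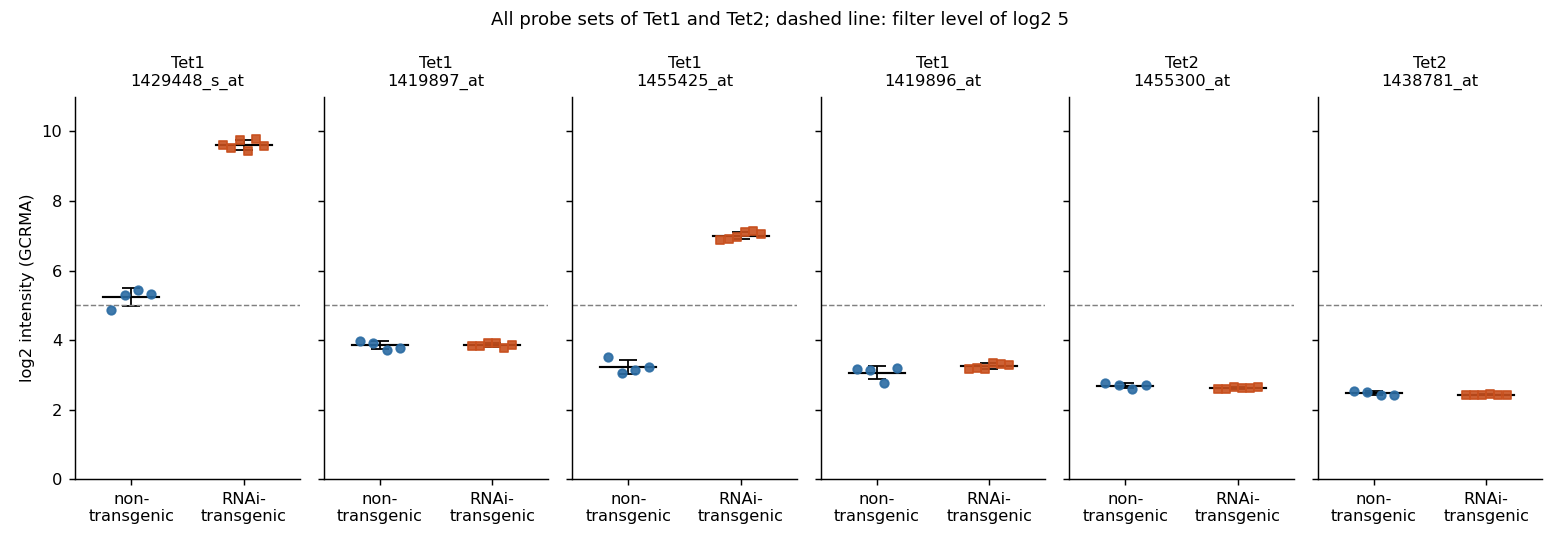
Log2 intensity of all 4 probe sets of Tet1 and both of Tet2 in the control (circles) and RNAi-transgenic samples (squares), with mean and SD and the filter level of log2 5 as a dashed line. Tet1 probe sets 1429448_s_at and 1455425_at stand at means of 9.61 and 7.01 in transgenic samples, and the other 4 probe sets are below the line in all samples.

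Tet3, the TET gene known from the zygote, did not pass. Its single probe set was at 7.88, 7.75, 8.17 and 8.10 in the control samples and at 7.87, 7.96 and 8.24 (lowest, median, highest) in the transgenic samples. The groups overlapped, with a difference of 0.01 (95% interval -0.24 to 0.25, limma adjusted p = 0.958). The changes of Tet1 and Tet3 were compared within each sample as the difference of their log2 values, which a shift of a whole array does not change. The 6 gene pairs compared in this way were added after the data had been seen. Tet1 changed by 4.36 more than Tet3 (exact permutation p = 0.00476, adjusted p = 0.0286 over 6 such pairs, 4.27 to 4.46 with each sample left out). As Tet3 differed by 0.01, this comparison largely repeats the Tet1 difference and is no separate support for it. The size uses the Tet1 value of control replicate 1 under the filter level and stands as a description.

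Among the enzymes that place methylation, Dnmt3b and Dnmt3a fell and their cofactor Dnmt3l did not pass. Dnmt3b was at 9.19, 9.27, 9.24 and 9.36 in control samples and at 8.43, 8.70 and 8.80 (lowest, median, highest) in transgenic samples. All 6 transgenic samples were below every control sample. The difference was -0.59 (SE 0.09, 95% interval -0.79 to -0.40, limma adjusted p = 0.000395, exact permutation p = 0.00476), or 1.51-fold lower, and 7.88% of all tested genes differed downward by as much. The second Dnmt3b probe set, 1418351_a_at, was at 7.30, 7.24, 7.17 and 7.40 in control samples. It ran from 6.55 over a median of 6.85 to 7.16 in transgenic samples, again without overlap, with a difference of -0.41 (limma adjusted p = 0.0258 over all 18582 probe sets tested, 33.2% of which passed).

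Dnmt3a, the main enzyme of oocyte methylation, was at 11.33, 11.01, 11.05 and 11.30 in control samples and at 10.47, 10.84 and 11.05 in transgenic samples (lowest, median, highest). The groups overlapped narrowly, since 5 of 6 transgenic samples were below the lowest control sample. The difference was -0.35 (SE 0.11, limma adjusted p = 0.0337, exact permutation p = 0.019), or 1.27-fold lower. This call was lost on leaving out any one of control replicates 1 and 8 and transgenic replicates 4 and 5 (adjusted p from 0.0579 to 0.0924), after centring each array on its median (0.0691), with array weights (0.051), with no filter (0.0551), with the Gapdh 3′ to 5′ signal difference of each array as a covariate (0.0798) and without control replicate 1 and transgenic replicate 6 together (0.094). That signal difference, a measure of how far signal leans to the 3′ end, ran from 3.72 to 4.34 in control and from 3.63 to 4.12 in transgenic samples. The same difference for actin ran from 3.44 to 4.01 in control and from 3.4 to 5.13 in transgenic samples. Its highest value was in transgenic replicate 6, which also had the lowest Dnmt3a value. With actin as the covariate Dnmt3a differed by -0.30 (limma adjusted p = 0.0374). The part of either signal difference in the result was not tested further.

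The 4 other Dnmt3a probe sets all had lower means in transgenic oocytes. Probe set 1423065_at was at 8.04, 7.83, 7.84 and 8.22 in control and between 7.46 and 7.77 in transgenic samples, without overlap, and passed (difference -0.40, limma adjusted p = 0.0132 over probe sets). The remaining 3 differed by -0.14, -0.26 and -0.21 and did not pass (adjusted p = 0.368, 0.131 and 0.29). The 5 probe sets were read on the same arrays and are not independent samples; which Dnmt3a transcripts each reads was not examined.

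Dnmt3l was at 9.92, 9.96, 10.12 and 9.87 in control and at 9.49, 9.88 and 10.06 (lowest, median, highest) in transgenic samples, with a difference of -0.11 (95% interval -0.35 to 0.12, limma adjusted p = 0.447). The low transgenic value was replicate 11. Within samples Dnmt3b changed by -0.48 relative to Dnmt3l (exact permutation p = 0.0143, adjusted p = 0.0429 over the 6 pairs). Dnmt3b relative to Dnmt3a changed by -0.25 and Dnmt3a relative to Dnmt3l by -0.24, and neither passed (exact permutation p = 0.162 and 0.21, adjusted p = 0.194 and 0.21). A larger fall of Dnmt3b than of Dnmt3a was thus not shown.

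**Figure D3:**
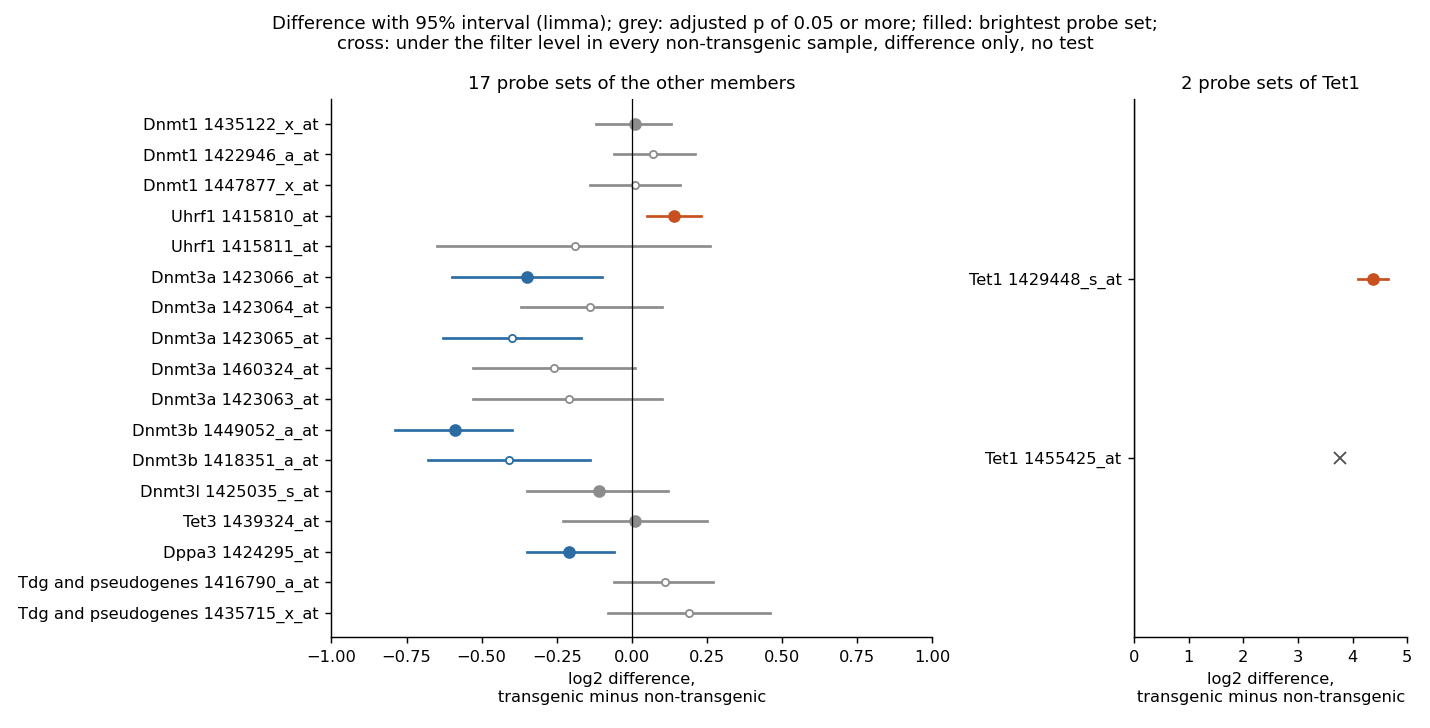
Log2 difference, transgenic minus control, for the 19 probe sets of the members past the filter (17 at left, the 2 of Tet1 at right on their own axis), with the 95% limma interval and colour where the adjusted p over probe sets was below 0.05. The cross marks 1455425_at, which was under the filter level in every control sample and is shown as a difference with no interval or call. The intervals of both Dnmt3b and 2 of 5 Dnmt3a probe sets lie wholly below 0, the 3 Dnmt1 intervals include 0, and the Tet1 points stand at 4.37 and 3.77.

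Dnmt1, which copies methylation, was measured by 3 probe sets and none passed. The brightest was at 14.40, 14.25, 14.19 and 14.30 in control and at 14.13, 14.28 and 14.42 (lowest, median, highest) in transgenic samples. The groups overlapped, with a difference of 0.01 and a 95% interval of -0.12 to 0.13 (limma adjusted p = 0.957). The other probe sets differed by 0.07 and 0.01 (limma adjusted p = 0.372 and 0.951 over probe sets). Probe sets of Dnmt1 are not resolved here into the oocyte and somatic forms of the transcript.

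Uhrf1, which guides DNMT1 to hemimethylated DNA, rose slightly by its brighter probe set only. That probe set was at 13.35, 13.43, 13.39 and 13.32 in control and at 13.46, 13.51 and 13.59 (lowest, median, highest) in transgenic samples, without overlap. The difference was 0.14 (SE 0.04, limma adjusted p = 0.0224, exact permutation p = 0.00476), or 1.10-fold. The dimmer probe set, 1415811_at, had a lower mean in transgenic samples, at 11.75, 11.40, 11.56 and 11.65 against 10.88, 11.31 and 12.20 (lowest, median, highest), and did not pass (difference -0.19, adjusted p = 0.514 over probe sets). The mean of both probe sets gave -0.03 (adjusted p = 0.85), so the direction for Uhrf1 depends on the probe set, and the call was also lost without control replicate 8 (adjusted p = 0.0691), without a trend in the variance (0.0855), with the Gapdh covariate (0.0774) and without that pair of arrays (0.0564). Within samples Dnmt1 changed by -0.13 relative to Uhrf1, which did not pass (exact permutation p = 0.0952, adjusted p = 0.171).

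Dppa3 was at 14.07, 13.71, 13.93 and 13.90 in control and at 13.64, 13.69 and 13.77 (lowest, median, highest) in transgenic samples. Control replicate 2 lay within the transgenic range and 4 of 6 transgenic samples were below it. The difference was -0.21 (SE 0.06, limma adjusted p = 0.0265, exact permutation p = 0.0143), or 1.15-fold lower. The call was lost on leaving out any one of control replicates 1, 7 and 8 and transgenic replicates 5 and 11 (adjusted p from 0.051 to 0.0707), after median centring (0.0822), without a variance trend (0.058), with the Gapdh covariate (0.218) and without the pair of arrays (0.0572). Relative to Tet3, the enzyme it is known to oppose, Dppa3 changed by -0.22 and did not pass (exact permutation p = 0.114, adjusted p = 0.171).

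For Tdg only the probe sets shared with its pseudogenes can be given, and these read the group as a whole. Probe set 1416790_a_at was at 7.26, 7.40, 7.33 and 7.39 in control and at 7.36, 7.45 and 7.52 (lowest, median, highest) in transgenic samples. It differed by 0.11 (95% interval -0.06 to 0.27) and did not pass (limma adjusted p = 0.32 over probe sets). Probe set 1435715_x_at differed by 0.19 (adjusted p = 0.265), and 1448462_at was under the filter level in all samples.

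The genes whose profile over the 10 samples was most like that of Tet1 were sought by the root mean square of the differences of log2 values, each gene centred on its own mean. The 5 nearest were Fam189a1 at 0.162, AI661453 at 0.204, the lipoprotein receptor gene Vldlr at 0.299, Gprc5a at 0.301 and the transglutaminase gene Tgm1 at 0.315 log2 units. Their differences between the groups were 4.40, 4.32, 4.03, 4.50 and 4.60. AI661453 and Tgm1 were under the filter level in all 4 control samples. The measure is a description, and all values come from the same 10 arrays.

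Genes around the methylation pathway were followed as 8 lists of 153 genes, of which 138 were on the array and 111 were tested. In these, 18 rose, 20 fell and 73 did not pass, so 34.2% were called, near the 37.2% of all genes. Their median difference was -0.07, beside -0.03 for all tested genes, and the medians of the single lists ran from -0.17 (deaminases and base excision repair) to 0.48 (other Dppa genes). Shares called were 14.3% for methyl-CpG binding, 23.8% for methylation partners, 36.4% for TET partners and 31.2% for deaminases and excision repair. They were 42.9% for the methyl donor cycle, 100% for other Dppa genes, 43.5% for imprinted and 25% for germline genes. The lists hold few tested genes, and no more is read from these shares.

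Of 7 tested genes of methyl-CpG binding proteins 0 rose and 1 fell. Mbd3, a subunit of the NuRD repressor complex, fell by 0.58 on the log2 scale, from 7.11 ± 0.18 (SD, n = 4) to 6.53 ± 0.21 (SD, n = 6; limma adjusted p = 0.00502). Of 21 partners of the methyltransferases 3 rose and 2 fell. Cdca7, the activator of the remodeller HELLS that opens nucleosomal DNA to methylation, rose from 7.10 ± 0.50 (SD, n = 4) to 9.39 ± 0.13 (SD, n = 6), 4.89-fold (limma adjusted p = 4.32e-06). Hells itself rose by 0.33 (adjusted p = 0.105 with the Gapdh covariate) and the clamp gene Pcna, on which DNMT1 rides at replication, by 0.27. The Cdca7 paralog Cdca7l fell by 0.32 and the tRNA methyltransferase gene Trdmt1, also known as Dnmt2, by 0.40. Pcna did not pass on leaving out any one of control replicates 2 and 8 and transgenic replicates 12 and 13 (adjusted p from 0.0516 to 0.106), with no filter (0.0544), without a variance trend (0.0504) and with the Gapdh covariate (0.0838).

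On the erasing side, of 11 tested genes of TET partners and cofactor supply 2 rose and 2 fell. Idh1, which makes the 2-oxoglutarate that TET enzymes consume, rose by 0.92 (SE 0.20) and the stress gene Gadd45b by 0.75. Hmces, which shields abasic sites, fell by 0.42 and Tex264 by 0.47. Of 16 tested deaminase and base excision repair genes 2 rose and 3 fell. Smug1, a glycosylase of uracil and hydroxymethyluracil, fell by 1.63 on the log2 scale, from 10.29 ± 0.08 (SD, n = 4) to 8.66 ± 0.26 (SD, n = 6; limma adjusted p = 3.59e-06), 3.09-fold lower. The glycosylase gene Neil1 rose by 1.59 (limma adjusted p = 2.12e-05) and the flap nuclease gene Fen1 by 0.29, whereas the endonuclease gene Apex2 fell by 0.76 and the scaffold gene Xrcc1 by 0.31. Apex2 did not pass without control replicate 7 (adjusted p = 0.06). Xrcc1 did not pass on leaving out any one of control replicates 2 and 8 and transgenic replicate 13 (0.0508 to 0.0858), after median centring (0.0675), with the Gapdh covariate (0.0865) and without both control replicate 1 and transgenic replicate 6 (0.0543).

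S-adenosylmethionine is the methyl donor of all methyltransferases, and of 14 tested genes of its cycle 3 rose and 3 fell. Gnmt, which uses the donor to methylate glycine, was above the filter level in 3 of 4 control samples and at 8.75 ± 0.15 (SD, n = 6) in transgenic samples, at least 11.5-fold higher (limma adjusted p = 5.52e-09). Gnmt thus reached the 4 arrays of the filter only with transgenic samples. Ahcy, which clears the inhibitory product of methylation, rose by 0.96 (SE 0.11) and the mitochondrial one-carbon gene Shmt2 by 0.87. The folate carrier gene Slc19a1 fell by 0.41, Ahcyl2 by 0.36 and Mthfd1 by 0.23. Ahcyl2 did not pass on leaving out any one of control replicates 1, 2 and 7 and transgenic replicates 5 and 12 (adjusted p from 0.052 to 0.0805), with array weights (0.06) and without both control replicate 1 and transgenic replicate 6 (0.0922). Mthfd1 did not pass on leaving out any one of control replicates 2 and 7 and transgenic replicate 13 (0.0507 to 0.0841), after median centring (0.0938), as the mean of its probe sets (0.0611) and with the Gapdh covariate (0.0565).

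The 3 tested Dppa genes beside Dppa3 all passed, in both directions, where 37.2% of all tested genes were called. With 3 genes no more is read from this count. Dppa4 fell by 2.24 on the log2 scale, from 8.27 ± 0.29 (SD, n = 4) to 6.03 ± 0.24 (SD, n = 6; limma adjusted p = 1.19e-06), 4.74-fold lower. Its known binding partner Dppa2 rose by 0.48 and Dppa5a, an RNA-binding protein gene of early embryos, by 0.62. Dppa2 and Dppa4 are known as maternal factors acting on promoters of early embryonic genes.

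Imprinted genes are marked by methylation set in the germline, and of 23 tested members of that list 4 rose and 6 fell. Phlda2, known as a brake on placental growth, rose from 6.12 ± 0.31 (SD, n = 4) to 11.17 ± 0.28 (SD, n = 6), 33.2-fold (limma adjusted p = 4.14e-09). Slc22a18, its neighbour in the imprinted cluster, was above the filter level in 3 of 4 control samples and at least 3.24-fold higher. Slc22a18 thus reached the 4 arrays of the filter only with transgenic samples. The non-coding RNA gene Meg3 rose by 1.59 at its brightest probe set and by 0.58 as the mean of its probe sets (limma adjusted p = 0.000197). Th, which encodes tyrosine hydroxylase and lies in the same cluster as Phlda2, fell by 1.72, the adaptor gene Grb10 by 0.81 and the ubiquitin ligase gene Ube3a by 0.68. Of 16 tested germline genes known to be silenced by methylation in somatic cells 2 rose and 2 fell. Tex19.1 rose by 1.32 (SE 0.19) and Sycp1, a synaptonemal complex gene, by 0.35, while Tex11 fell by 0.87 and the cohesin gene Smc1b by 0.50. Sycp1 did not pass on leaving out any one of control replicates 1 and 8 and transgenic replicate 11 (adjusted p from 0.0515 to 0.0776), after quantile normalization (0.074), with the Gapdh covariate (0.106) and without both control replicate 1 and transgenic replicate 6 (0.105).

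**Figure D4:**
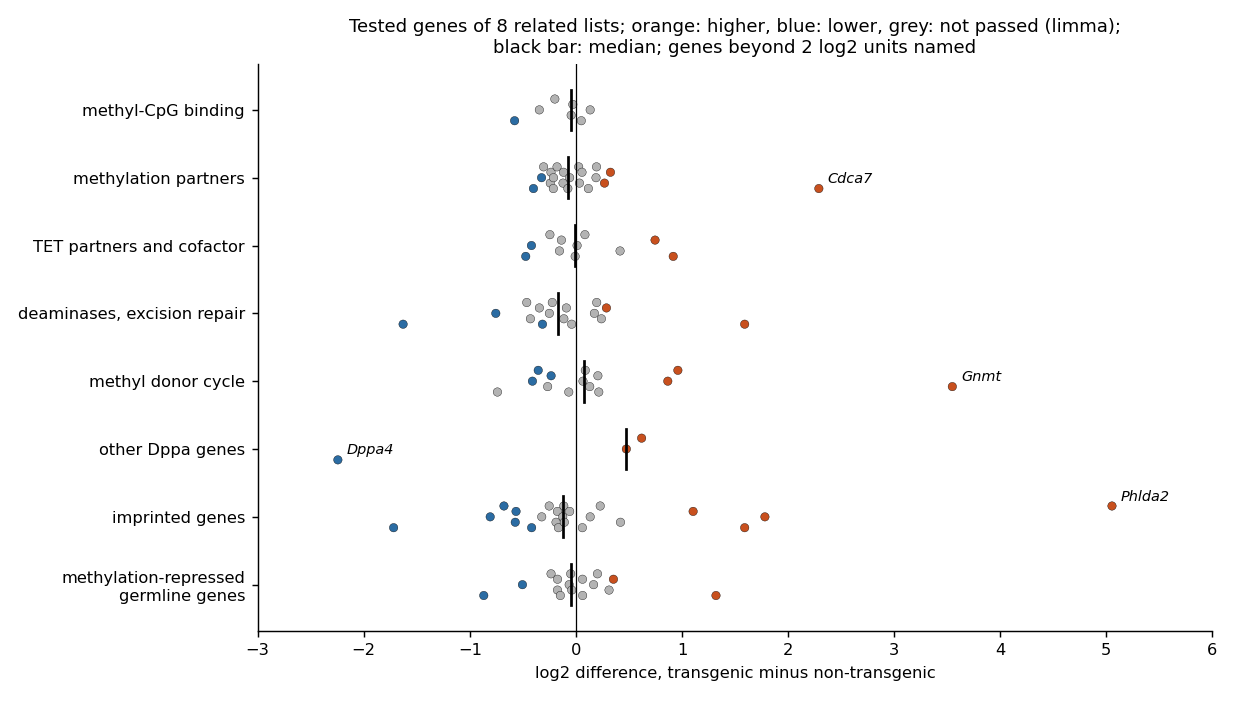
Log2 difference, transgenic minus control, of the 111 tested genes of the 8 related lists, one point per gene, coloured where limma called the gene (orange higher, blue lower) and grey otherwise, with the median of each list as a black bar. Cdca7, Gnmt, Phlda2 and Dppa4 lie beyond 2 log2 units, at 2.29, 3.55, 5.05 and -2.24.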

How the data were processed

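Each array gave 1 value for each probe set. The authors made these intensity values with GCRMA, per the submitters' processing notes (the sources used here give no version), and deposited them on a linear scale without detection flags. These were put on the log2 scale with no new normalization. GCRMA pulls dim probe sets to a floor, so values below log2 5 (intensity 32) have no usable order. Of 45101 probe sets 64 were controls, 34958 had 1 gene in the platform annotation, of which 34754 were updated by gene number through RefSeq (GRCm38.p6), 932 had several genes and stayed out of gene-level tests, and 9147 others were not listed. Probe sets above log2 5 on at least 4 arrays were kept (18582), and the brightest stood for its gene. limma 3.58.1 in R 4.3.3 (lmFit, eBayes with a trend) compared all samples as unpaired, with Benjamini-Hochberg adjustment over 10590 genes and a threshold of 0.05. The fit was tested on simulated data. Single values and within-sample differences were compared by two-sided exact permutation tests. Nothing says that the mice came from separate litters, so p-values measure the spread between these samples. The number of arrays limits the precision.

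The members and lists were chosen with earlier results of these data known. Named genes are all members, up to 3 higher and 3 lower called genes per related list by adjusted p, the 5 profiles nearest to each member changed at least 2-fold, the 3 brightest markers per cell type, and Bnc1. Alternatives were a filter level of 7 or no filter, median centring or quantile normalization, log2(value + 16), no trend, robust fits, array weights, the replicate number range (1 to 6 or 7 to 13, which no label calls batches) as covariate or subset, leaving out each sample, averaging the probe sets of a gene, single probe sets, and stricter thresholds. Covariates from the Gapdh and actin 3′ and 5′ probe sets, and leaving out control replicate 1 with transgenic replicate 6, the arrays farthest from their group means, were added after seeing the data. Figures used matplotlib 3.10.9.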

Additional observations from a re-analysis of the deposited data

Results flagged for a closer look

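A sample apart from all others of its group was found in 12 of 132 groups of values examined. The 95% critical value used marks about 1 in 20 groups by chance where groups are independent; these share arrays, and some gaps are small. Among the members, transgenic replicate 11 was lowest for Dnmt3a probe set 1423063_at, at log2 6.29 where the other 5 lay between 6.85 and 6.88, and for Dnmt3l at 9.49, with the others between 9.85 and 10.06. Among the related genes, control replicate 1 was lowest for Cdca7 (6.36) and Grb10 (8.25), control replicate 2 for Slc19a1 (8.53, with the others near 8.57), and control replicate 7 was highest for Dppa2 (13.22). Transgenic replicate 6 was highest for Cdca7l (9.60) and lowest for Tex264 (10.16), and transgenic replicate 12 was lowest for Mthfd1 (11.59) and Meg3 (10.28). The marker gene Col4a1 was highest in control replicate 8 (8.19) and lowest in transgenic replicate 5 (7.33).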

How the results depend on the processing

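Tet1 kept its direction and its call under all alternatives run, with differences from 3.89 to 4.52. For Tet1 the single probe set alternative read the same brightest probe set again (4.369). Its mean of probe sets (4.07) took in the probe set that passed the filter only through the transgenic group. The Tet1 probe sets under the filter level in all samples entered neither, so the choice of probe set was not tested by these alternatives. Dnmt3b kept direction and call under all but the 2-fold threshold, which its 1.51-fold difference does not reach, with differences from -0.71 to -0.48. Members higher numbered 2, and 1 without a variance trend, within samples 1 to 6, within samples 7 to 13, with the mean of probe sets, at a threshold of 0.01, at 2-fold, with the Gapdh covariate and without the pair of arrays, and 1 to 2 with each sample left out. Members lower numbered 3, and 2 with no filter, without a variance trend, with array weights and within samples 7 to 13. They numbered 1 after median centring, within samples 1 to 6, at 0.01, with the Gapdh covariate and without the pair of arrays. At 2-fold they numbered 0, and 1 to 3 with each sample left out. Related genes higher went from 18 to 8 at 2-fold. Related genes lower went from 20 to 8 within samples 1 to 6, 13 at 0.01 and 3 at 2-fold, and ran from 16 to 24 with each sample left out. Of all genes 3940 passed, against 1913 within samples 1 to 6, 2264 within samples 7 to 13, 2501 at 0.01 and 951 at 2-fold. Signs turned for Dnmt1 (-0.018 after quantile normalization, -0.015 with the actin covariate, -0.025 to 0.042 with each sample left out), Tet3 (-0.046 after quantile normalization, -0.017 with array weights, -0.14 within samples 7 to 13, -0.026 without the pair, -0.064 to 0.075 with each sample left out) and Uhrf1 (-0.028 with the mean of probe sets). The cause was not tested. Within samples 1 to 6 and 7 to 13, Dnmt3a differed by -0.49 and -0.21 and passed in neither. Over 34 named related genes and Bnc1, 870 of 940 values kept direction and call and 70 lost the call. Tet2 was under the filter level and has no such values. No paired analysis was possible because the groups share no replicate number.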
